A study of Mus musculus with 12 samples.

Results

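Rab GTPases are the small GTP-binding proteins that give membrane compartments their identity and direct the traffic of vesicles between them. A macrophage expresses many of them at once, since phagocytosis, recycling of receptors, delivery to lysosomes and secretion each use their own set. They were described here in bone-marrow-derived macrophages given interferon gamma (IFNγ), the cytokine that activates macrophages against microbes living in their phagosomes. Members were taken by name, as every row of the expression table whose gene field holds a symbol made of Rab, 1 or 2 digits and at most 2 further characters. This gave 61 of 46729 entries. Of these, 58 are Rab GTPases. The other 3 were taken by the spelling alone: Rab3ip, an exchange factor for Rab8, and the antisense transcripts Rab10os and Rab26os.

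The cells came from marrow of C57BL6 mice and were differentiated over 10 days with interleukin-3 and medium of L-929 cells, which supplies colony-stimulating factor 1. All 4 groups share strain, culture and harvest 8 h after a change of medium, and the medium held no IFNγ, 0.2, 2 or 20 U/ml. The highest dose is labelled in units without a volume and was read as U/ml. Each group has 3 libraries in the labels and 1 deposited value per gene, in FPKM (read fragments relative to transcript length and library size), so no difference has a replicate check, a standard deviation or a p-value. The labels do not say whether the 3 libraries came from separate mice or cultures, and the depth is unknown.

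The 7 measured markers of macrophages summed to 2733 FPKM in untreated cells, 2167 at 0.2, 2499 at 2 and 2789 at 20 U/ml. Cd68 was the largest part, at 1814, 1255, 1337 and 1503 FPKM. Csf1r was at 349, 340, 416 and 418 FPKM, and Fcgr1 at 32.3, 53.5, 148 and 348. In untreated cells and at 20 U/ml, Adgre1 was at 151 and 188 FPKM and Mertk at 13.5 and 14.0. Cd14 was at 301 and 256, and Itgam, in an entry shared with another gene, at 71.7 and 63.1. All 6 markers of T and NK cells were under 1 FPKM in every group, and the list's summed level was between 0.0167 and 0.0546 FPKM. Markers of neutrophils summed to 17.0 FPKM in untreated cells, 21.2 at 0.2, 29.1 at 2 and 35.1 at 20 U/ml. The higher sums are mostly those of S100a8, at 13.3, 18.0, 25.6 and 30.4 FPKM. By contrast, S100a9 was at 2.32, 1.25, 1.46 and 2.68 FPKM and Ltf at 0.314, 0.516, 1.10 and 0.751, while Ly6g did not exceed 0.124. Markers of osteoclasts, which arise from the same precursors, summed to 42.0, 36.2, 32.8 and 27.5 FPKM in the same order, and Calcr did not exceed 0.00259. The lower sums are those of Ctsk, at 31.9 FPKM in untreated cells and 15.7 at 20 U/ml, while Ocstamp was at 0.142 and 1.80 and Dcstamp at 3.15 and 3.78. The B cell list summed to 1.47 FPKM in untreated cells, 3.00 at 0.2, 1.41 at 2 and 1.497 at 20 U/ml, with Ms4a1 at 0.242, 1.09, 0.299 and 0.231. The stromal and endothelial list summed to between 1.56 and 2.23. The part of such cells in the results below was not tested, and in a bulk sample fewer cells of a type and less RNA per cell cannot be told apart.

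A ratio below is the difference of log2(FPKM + 1) between a dose and untreated cells, and an entry is called higher or lower where this is at least 1 in size, a 2-fold difference on that scale. Ratios were read only for entries above 0 in each group whose 4 values averaged 1 FPKM or more. This left 41 of the 58 Rab GTPases and 11580 entries in all. Of the 41, 5 share their entry with another gene, and reads of the genes in such an entry cannot be told apart: Rab4b, Rab11a, Rab26, Rab27a and Rab43.

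Among Rab genes with an entry of their own, the ratios at 20 U/ml farthest from 0 in either direction were those of Rab39 and Rab19 (above 0) and Rab34 and Rab31 (below 0). The RefSeq promoters of these 4 (GRCm38.p6, 250 bases before to 50 after the annotated start) are shown because these genes stand at both ends of the ratios described below. Capitals mark 2 motifs searched on both strands: the gamma-activated site TTCNNNGAA and the interferon-stimulated response element GAAANNGAAA, both known from promoters of interferon-induced genes. Windows are given 5′ to 3′ on the strand of the gene.
Rab39, chr9:53706183-53706482, minus strand: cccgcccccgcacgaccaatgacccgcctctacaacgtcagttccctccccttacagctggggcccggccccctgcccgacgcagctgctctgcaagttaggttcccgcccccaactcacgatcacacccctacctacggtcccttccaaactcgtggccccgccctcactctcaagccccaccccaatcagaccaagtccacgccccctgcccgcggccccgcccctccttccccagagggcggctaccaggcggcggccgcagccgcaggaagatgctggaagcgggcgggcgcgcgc
Rab19, chr6:39381103-39381402, plus strand: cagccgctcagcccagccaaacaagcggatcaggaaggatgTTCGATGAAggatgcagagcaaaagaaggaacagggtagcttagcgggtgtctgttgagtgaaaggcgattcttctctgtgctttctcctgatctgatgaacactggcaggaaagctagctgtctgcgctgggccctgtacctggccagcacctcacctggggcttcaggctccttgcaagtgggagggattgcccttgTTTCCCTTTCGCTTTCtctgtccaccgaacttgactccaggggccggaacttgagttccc
Rab34, chr11:78188177-78188476, plus strand: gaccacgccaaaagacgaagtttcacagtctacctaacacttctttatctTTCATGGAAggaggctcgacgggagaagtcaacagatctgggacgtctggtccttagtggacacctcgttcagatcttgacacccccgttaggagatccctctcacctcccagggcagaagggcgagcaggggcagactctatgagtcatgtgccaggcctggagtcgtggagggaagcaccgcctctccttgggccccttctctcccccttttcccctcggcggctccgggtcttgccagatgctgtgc
Rab31, chr17:65772703-65773002, minus strand: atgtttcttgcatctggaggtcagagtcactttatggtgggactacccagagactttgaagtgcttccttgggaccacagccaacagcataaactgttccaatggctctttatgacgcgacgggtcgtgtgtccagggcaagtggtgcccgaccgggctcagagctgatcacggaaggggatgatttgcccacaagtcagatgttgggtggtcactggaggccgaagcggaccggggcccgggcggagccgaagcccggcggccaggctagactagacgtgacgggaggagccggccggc

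Rab19 held both motifs. Its window has 2 response elements that overlap each other by 4 bases, at 39381343 to 39381352 and at 39381349 to 39381358 on chromosome 6, matched as TTTCCCTTTC and TTTCGCTTTC on the strand shown. The first ends at the base before the RefSeq start and the second spans it. A gamma-activated site, TTCGATGAA, lies 200 bases upstream of the start. GENCODE places the first base of the gene at 39381175, so another start within this window is annotated too. Rab34 held a gamma-activated site, TTCATGGAA, 191 bases upstream of its start, and a second RefSeq start of Rab34 held neither motif. The windows of Rab39 and Rab31 held neither motif, which says only that these letters are absent from these bases.

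Promoter windows were matched for 48 of the 58 Rab GTPases, 60 windows in all. The response element was in 1 of the 60 (1.67%), that of Rab19, against 3.44% of 32851 windows of all genes. The gamma-activated site was in 5 of the 60 (8.33%), those of Rab11a, Rab15, Rab19, Rab25 and Rab34, against 8.30% of all windows. The 4 promoters printed had a GC content of 70.7% (Rab39), 55.7% (Rab19), 58.0% (Rab34) and 60.3% (Rab31), beside medians of 61.2% for Rab windows and 52.7% for all windows. A match of letters is a description of the sequence and not evidence of binding.

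Macrophages carried a broad set of Rab transcripts. Of the 58 Rab GTPases, 34 averaged 10 FPKM or more, 17 averaged 50 or more and 7 averaged 100 or more. The 7 were the entry of Rab11a, Rab5c, Rab7, Rab1a, Rab14, Rab7b and Rab1b, so the most abundant transcripts span recycling, early endosomes, late endosomes and lysosomes, and the route from the endoplasmic reticulum to the Golgi. At the other end, 15 were under 1 FPKM in every group and 6 of these under 0.1, and 4 (Rab3b, Rab6b, Rab9b and Rab39b) were listed at 0 in at least 1 group.

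**Figure D1:**
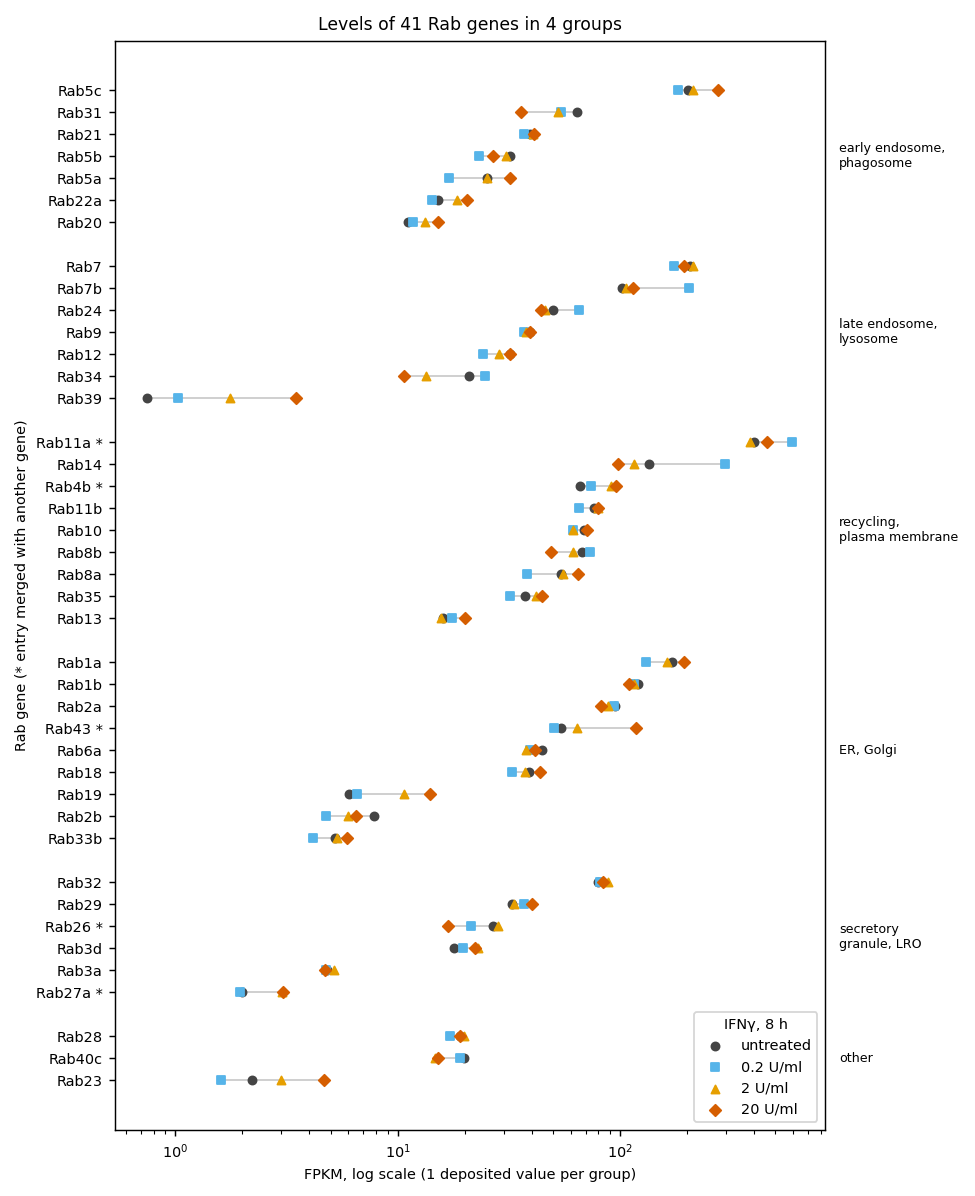
FPKM of 41 Rab GTPases on a log axis, with 1 deposited value for untreated cells (circles) and for 0.2 (squares), 2 (triangles) and 20 U/ml (diamonds), grouped by compartment and ordered by mean level (LRO is lysosome-related organelle, and * marks an entry merged with another gene). The 4 symbols of most genes lie close together, and the lowest and highest are over 2-fold apart for Rab39, Rab14, Rab23, Rab43, Rab19, Rab34 and Rab7b.

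The 17 Rab GTPases under the filter were Rab3b, Rab3c, Rab27b, Rab37, Rab38 and Rab44 of secretory granules, Rab6b, Rab30, Rab33a and Rab39b of the Golgi, Rab15, Rab17 and Rab25 of recycling endosomes, Rab9b and Rab36 of late endosomes, and Rab40b and Rab42. Of them, 2 exceeded 1 FPKM in some group: Rab37 was at 0.548 FPKM in untreated cells, 0.555 at 0.2, 0.803 at 2 and 1.17 at 20 U/ml, and Rab42 was at 0.640, 1.31, 0.520 and 0.458. Rab37 overlaps Cd300lf, a receptor gene of myeloid cells, on the other strand. Rab4a had no row that the rule could match and was not analysed here.

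At 20 U/ml, 3 of the 41 Rab GTPases were higher and 0 lower, against 6.51% of all entries higher and 2.94% lower (5.43% and 4.09% with upper-quartile scaling). The 3 were Rab39, Rab19 and the merged entry of Rab43, and the share of the family that was higher is close to that of all entries. The median ratio of the 41 was 0.08, beside 0.01 for all entries. Of the 41, 26 were above 0, against 5923 of all 11580 entries. With upper-quartile scaling of the groups the family's median was -0.06, where that of all entries was -0.11. With quantile normalization both medians were -0.07, so the sign of the family's median depends on the scaling. With either scaling tried, Rab39 was the only one of the 41 still called higher and Rab34 was called lower.

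At 2 U/ml, 0 of the 41 were higher and 0 lower, against 2.5% and 0.76% of all entries, and the median ratio was 0.03, beside 0.01 for all entries. With either scaling the family's median was -0.03, so its sign depends on the scaling here too. The largest ratios were those of Rab19 (0.73) and Rab39 (0.66), and the smallest was that of Rab34 (-0.61), the same genes as among the extremes at 20 U/ml, in a comparison that uses the same untreated values. With a pseudocount of 0.1 FPKM, Rab39 was at 1.13 at this dose and was called higher.

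At 0.2 U/ml, 2 of the 41 were higher and 0 lower, against 5.23% and 0.328% of all entries. The 2 were Rab14 and Rab7b, and neither was among those called at 20 U/ml. This was usual, since 447 of the 606 entries higher at 0.2 U/ml had ratios under 0.5 at both other doses. The median of the 41 was -0.09, beside 0.002 for all entries, and 27 were below 0, against 5760 of all 11580 entries. With upper-quartile scaling the family's median was -0.20 and that of all entries -0.10.

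**Figure D2:**
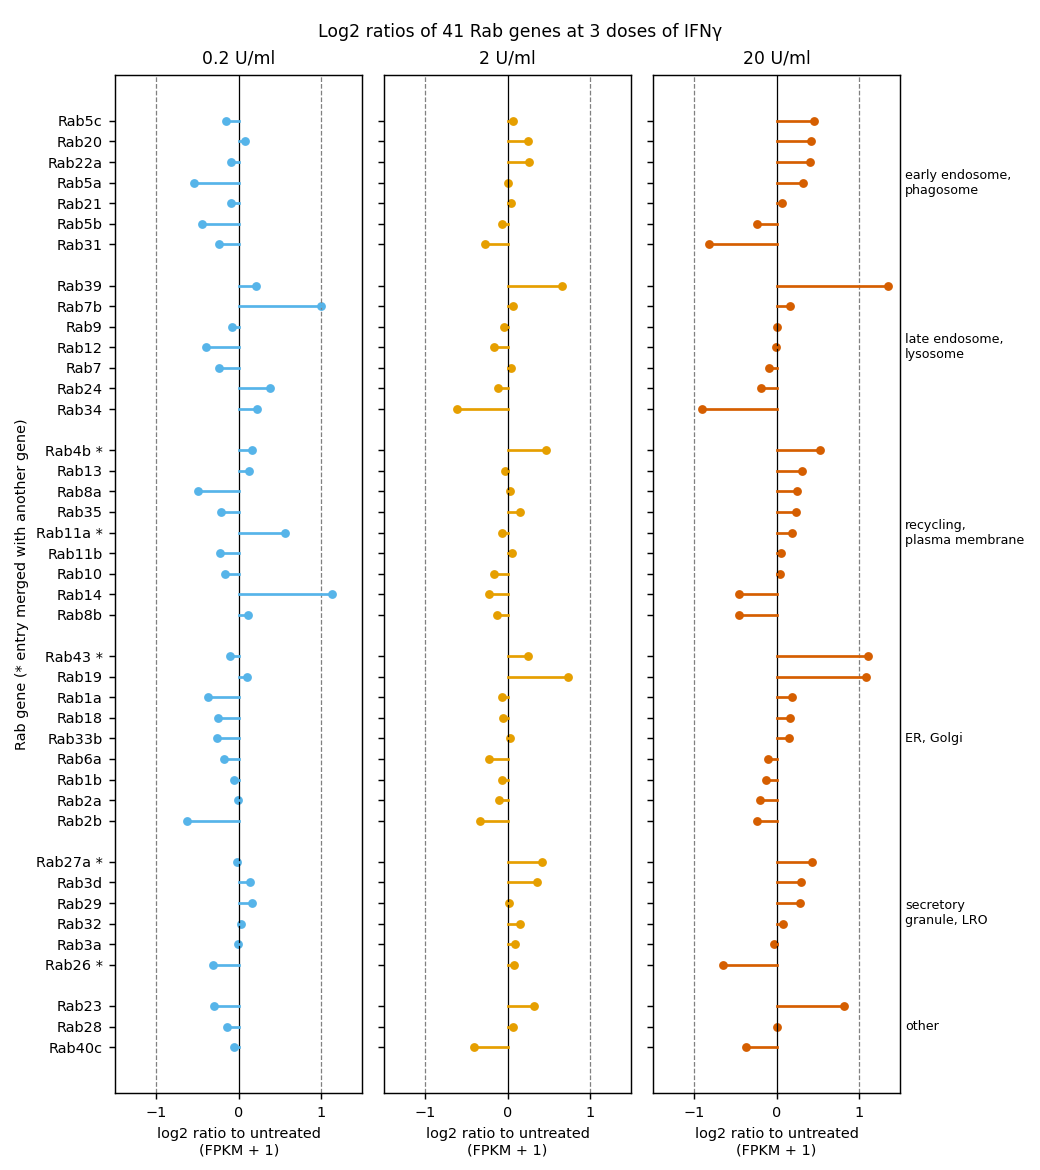
Log2 ratio of FPKM + 1 to untreated cells for 41 Rab GTPases at 0.2, 2 and 20 U/ml IFNγ, grouped by compartment (LRO is lysosome-related organelle, and * marks an entry merged with another gene), with dashed lines at the size rule of 1. At 20 U/ml Rab39 (1.35), Rab43 (1.11) and Rab19 (1.09) pass it, and at 0.2 U/ml Rab14 (1.13) and Rab7b (1.00) do, while scaling of the groups takes all but Rab39 and, with upper-quartile scaling, Rab14 under it.

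Early endosomes and new phagosomes are marked by Rab5, which recruits the tethers and the lipid kinase that let them fuse, and are joined by Rab20, Rab21, Rab22a and Rab31. All 7 members of this group were measured, and 0 were higher or lower at any dose. Their median ratio was -0.16 at 0.2, 0.04 at 2 and 0.32 at 20 U/ml, where 5 of 7 were above 0 (4 of 7, with a median of 0.18, under either scaling). Rab31, which carries cargo between the trans-Golgi network and endosomes (chromosome 17, 65651729 to 65772752, with the pseudogene AC166058.1 inside it), had the smallest ratio of the group.

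Rab31 was at 64.2 FPKM in untreated cells, 54.4 at 0.2, 52.7 at 2 and 35.9 at 20 U/ml. Each value is below the one before, and the ratio at 20 U/ml was -0.82, which does not pass the size rule (-0.96 with upper-quartile scaling and -0.99 with quantile normalization, under which the order of the lower doses was not kept). Its closest relative Rab22a, which acts in endosomal recycling, was at 15.2, 14.2, 18.4 and 20.6 FPKM, with a ratio of 0.41 at 20 U/ml. Of the summed level of this pair, Rab22a made up 19.2% in untreated cells, 20.7% at 0.2, 25.9% at 2 and 36.4% at 20 U/ml.

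The 3 forms of Rab5 did not follow one another. Rab5c, the most abundant of them (chromosome 11, 100715009 to 100738215), was at 202 FPKM in untreated cells, 182 at 0.2, 212 at 2 and 277 at 20 U/ml, a ratio of 0.45 at the highest dose. Rab5a was at 25.3, 17.1, 25.3 and 31.9 FPKM, and Rab5b at 32.1, 23.3, 30.6 and 27.0. Rab5a overlaps Pp2d1 on the other strand. All 3 forms had their lowest value at 0.2 U/ml, and at 20 U/ml Rab5a (0.32) and Rab5c were above untreated cells and Rab5b (-0.24) below. Of the summed Rab5 level, Rab5c held 77.9% without IFNγ and 82.5% at 20 U/ml, and Rab5b 12.3% and 8.03%.

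Rab20, which is linked to the maturation of macrophage phagosomes (chromosome 8, 11453518 to 11478710), was at 11.1 FPKM in untreated cells, 11.7 at 0.2, 13.3 at 2 and 15.2 at 20 U/ml. Its values stood in the order of the doses, with a ratio of 0.42 at 20 U/ml, higher than 81.6% of all entries and short of the size rule. Rab21, which traffics integrins through early endosomes, stayed between 37.0 and 41.2 FPKM.

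Late endosomes and lysosomes are governed by Rab7, which brings phagosomes together with lysosomes, beside Rab9, Rab12, Rab34, Rab39 and the autophagy-linked Rab24. Of 9 members 7 were measured. At 20 U/ml 1 was higher, against 6.51% of all entries, and at 0.2 U/ml 1, another gene, against 5.23%. The median ratio of the 7 was -0.01 at 20 U/ml, with 3 of 7 above 0 (-0.15 with upper-quartile scaling and -0.16 with quantile normalization, with 2 of 7 above 0 under each). Of all 11580 entries, 5923 were above 0 at 20 U/ml. The group held the largest and the smallest ratio of all Rab GTPases at that dose.

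Rab39, the mouse form of RAB39A, which has been placed on late endosomes and phagosomes, lies on chromosome 9 from 53684110 to 53706232 on the minus strand. It was at 0.749 FPKM in untreated cells, 1.03 at 0.2, 1.75 at 2 and 3.47 at 20 U/ml. The values stand in the order of the doses, and the ratio was 0.21, 0.66 and 1.35 in turn. The deposited values themselves differ 4.64-fold between 20 U/ml and untreated cells, which the pseudocount of 1 FPKM understates at this low level, and with 0.1 FPKM the ratio was 2.07. A processed pseudogene, Rps6-ps3, lies within the gene on the same strand, and its part in these values was not tested.

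Rab34, which positions lysosomes near the Golgi and takes part in phagosome maturation (chromosome 11, 78188430 to 78192193), was at 20.9 FPKM in untreated cells, 24.6 at 0.2, 13.4 at 2 and 10.7 at 20 U/ml. Both higher doses lay below the untreated value and the lowest dose above it. The ratio was -0.91 at 20 U/ml, short of the size rule as deposited and past it after upper-quartile scaling (-1.04) or quantile normalization (-1.03).

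Rab7 itself (chromosome 6, 87999106 to 88045270) was at 207 FPKM in untreated cells, 175 at 0.2, 214 at 2 and 195 at 20 U/ml. Rab7b, a lysosomal relative known for limiting signals of Toll-like receptors (chromosome 1, 131688695 to 131715439), was at 102, 205, 106 and 114 FPKM in the same order. Its value at 0.2 U/ml stands apart from the other 3, which lie between 102 and 114, and the ratio of 1.00 there passed the size rule as deposited, but not after upper-quartile scaling (0.89) or quantile normalization (0.76). Rab7b thus made up 53.9% of the sum of both genes at 0.2 U/ml and between 33.0% and 36.9% in the other groups.

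Rab9, which returns receptors from late endosomes to the Golgi, stayed between 37.0 and 39.5 FPKM. Rab12 was at 32.1 FPKM in untreated cells, 24.2 at 0.2, 28.4 at 2 and 31.9 at 20 U/ml. Rab24 was at 50.2, 65.7, 46.1 and 44.1 FPKM, and overlaps Prelid1 on the other strand. The sources used here do not say whether counting used strand, and without it reads of such a pair cannot be told apart.

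Recycling endosomes send receptors back to the surface through Rab4, Rab11 and Rab35, while Rab8, Rab10 and Rab13 act in delivery to the plasma membrane and Rab14 between the Golgi, endosomes and phagosomes. Of 12 members 9 were measured. At 0.2 U/ml 1 was higher, against 5.23% of all entries, and at 2 and 20 U/ml 0, against 2.5% and 6.51%. The median ratio at 20 U/ml was 0.18, and 7 of 9 were above 0, against 5923 of all 11580 entries. This median was 0.04 with upper-quartile scaling and 0.08 with quantile normalization, with 5 of 9 above 0 under each.

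Rab14 (chromosome 2, 35180205 to 35201120) was at 135 FPKM in untreated cells, 296 at 0.2, 115 at 2 and 97.7 at 20 U/ml. The value at 0.2 U/ml is the highest by far, and the other 3 stand in descending order, to a ratio of -0.46 at 20 U/ml. The ratio at 0.2 U/ml was 1.13 and became 1.01 with upper-quartile scaling and 0.85 with quantile normalization. The entry of Rab11a, which shares its row with the transcript AC147560.1, was also highest at this dose, at 403, 597, 385 and 457 FPKM in the order of the doses. In the annotation, a miRNA gene of 107 nt, Gm47308, lies within Rab11a on the same strand, while no other gene overlaps Rab14 or Rab7b.

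High values at 0.2 U/ml alone were seen for other entries too. Among all entries, 447 were higher at 0.2 U/ml with ratios under 0.5 at both other doses, of 606 higher at that dose, and FPKM summed over the table to 1025970 there against 769698 in untreated cells, 783701 at 2 and 904993 at 20 U/ml. Rab14 and Rab7b are among the 447. The typical entry did not share this, with a median ratio of 0.002 at 0.2 U/ml and a median level of 12.9 FPKM against 12.3 in untreated cells. Markers of B cells also had their highest sum in this group, as given above. The part of these values in those of Rab14 and Rab7b was not tested.

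Rab8a and Rab8b differed in their order between groups. Rab8a, which acts in delivery to the surface and in signalling from macrophage membranes, was at 54.2 FPKM in untreated cells, 38.3 at 0.2, 55.4 at 2 and 64.7 at 20 U/ml. Rab8b was at 67.8, 73.6, 61.7 and 49.0 FPKM. Rab8b was the higher of the pair in the first 3 groups and Rab8a at 20 U/ml, where Rab8a made up 56.9% of their sum against 44.4% in untreated cells. Neither ratio at 20 U/ml (0.25 and -0.46) passed the size rule, and the sum of both stayed between 112 and 122 FPKM.

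The merged entry of Rab4b with Gm21983, Mia and Mir3101 had the largest ratio of the group at 20 U/ml, at 65.9 FPKM in untreated cells, 73.7 at 0.2, 91.5 at 2 and 95.5 at 20 U/ml, a ratio of 0.53. Its values stood in the order of the doses, and cannot be assigned to Rab4b alone. Rab35 was at 37.5, 32.1, 41.8 and 44.5 FPKM, and Rab13 at 16.0, 17.5, 15.6 and 20.2. Rab11b stayed between 65.2 and 79.9 FPKM and Rab10 between 61.3 and 71.2, each with its lowest value at 0.2 U/ml.

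**Figure D3:**
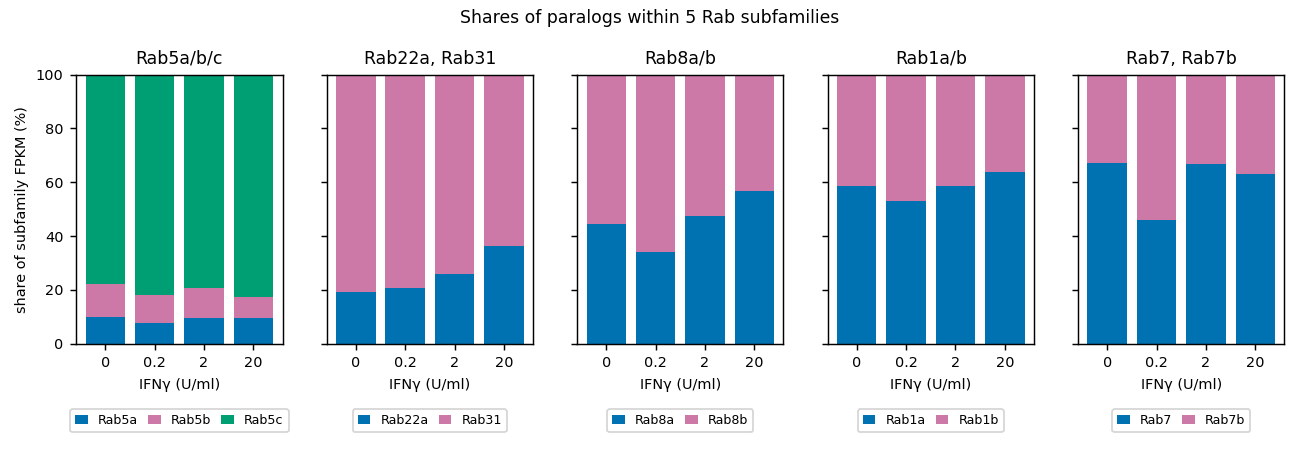
Share of each paralog in the summed FPKM of 5 Rab subfamilies (percent), for untreated cells (0) and 3 doses of IFNγ, with 1 deposited value per group and gene. Rab22a is at 19.2% of its pair in untreated cells and 36.4% at 20 U/ml, Rab8a is at 44.4% and 56.9%, and Rab7b is at 53.9% at 0.2 U/ml, its highest share. The Rab2, Rab3 and Rab32 subfamilies are not shown. In untreated cells and at 20 U/ml, Rab2a held 92.3% and 92.7% of its subfamily, Rab3d 78.7% and 82.5%, and Rab32 70.4% and 67.1%.

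On the route between the endoplasmic reticulum and the Golgi, Rab1 acts in export, Rab2 and Rab6 in return and sorting, and Rab18 at the endoplasmic reticulum and lipid droplets. Rab19, Rab33b and Rab43 also localize to the Golgi. Of 13 members 9 were measured, with 2 higher at 20 U/ml and 0 lower, against 6.51% and 2.94% of all entries. At the lower doses 0 passed the rule, against 5.23% of all entries higher at 0.2 and 2.5% at 2 U/ml. The 2, Rab19 and the merged entry of Rab43, both fell under the rule with either scaling. The median ratio of the 9 was 0.15 at 20 U/ml, and -0.00 with quantile normalization, so its sign depends on the scaling.

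Rab19, a Golgi-associated member whose function is little studied (chromosome 6, 39381175 to 39390380, with the response elements described above), was at 6.05 FPKM in untreated cells, 6.56 at 0.2, 10.7 at 2 and 14.0 at 20 U/ml. The values stand in the order of the doses, and those at 2 and 20 U/ml are apart from the lower pair. The ratio was 0.10, 0.73 and 1.09 in turn. With upper-quartile scaling the last was 0.96 and with quantile normalization just under 1, so that its call rests on the scaling.

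Rab43, which acts at the Golgi and has been linked to cross-presentation in dendritic cells (chromosome 6, 87788853 to 87812164), shares its entry with the splicing factor gene Isy1 and Gm45140, a protein-coding model that overlaps Rab43. The entry was at 54.1 FPKM in untreated cells, 50.4 at 0.2, 64.4 at 2 and 118 at 20 U/ml. The step to 20 U/ml is the wide one, with a ratio of 0.87 from 2 to 20 U/ml and 1.11 from untreated cells (0.97 with upper-quartile scaling). Which gene of the entry this reflects cannot be told apart.

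None of the other members of the route passed the size rule. Rab1a was at 171 FPKM in untreated cells, 131 at 0.2, 162 at 2 and 194 at 20 U/ml, and Rab1b at 120, 115, 115 and 110. Rab1b and Rab2a stood in descending order with the dose, Rab2a at 94.6, 94.3, 87.9 and 82.0 FPKM, with ratios at 20 U/ml of -0.13 and -0.20. Rab2b, the lesser form of Rab2, was at 7.84 FPKM in untreated cells, 4.74 at 0.2, 5.997 at 2 and 6.50 at 20 U/ml, and its ratio of -0.62 at 0.2 U/ml was the smallest of all Rab GTPases at that dose. It overlaps Tox4 and a snoRNA gene on the other strand. Rab6a, which overlaps Mrpl48 on the other strand, stayed between 37.8 and 44.6 FPKM, Rab18 between 32.5 and 43.5, and Rab33b between 4.17 and 5.91.

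Secretory granules and lysosome-related organelles use the Rab3 and Rab27 genes for regulated release and Rab32, Rab38 and Rab29 for cargo delivery to melanosomes and to vacuoles that hold bacteria. Of 12 members 6 were measured, and 0 were higher or lower at any dose. Rab32, known for antibacterial delivery in macrophages (chromosome 10, 10545002 to 10558265), was the most abundant of them and stayed between 79.4 and 87.9 FPKM. Rab29 was at 32.8 FPKM in untreated cells, 36.9 at 0.2, 33.2 at 2 and 40.4 at 20 U/ml, while Rab38 was between 0.398 and 0.809.

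Rab27a, which docks lytic granules and melanosomes (chromosome 9, 73044854 to 73097629), shares its entry with the processed pseudogene Gm27186. It was at 2.00 FPKM in untreated cells, 1.96 at 0.2, 3.00 at 2 and 3.06 at 20 U/ml, so that the values form a lower and a higher pair, with a ratio of 0.44 at 20 U/ml. Rab3d was at 17.9, 19.7, 23.1 and 22.2 FPKM, and Rab3a between 4.71 and 5.17. Rab26, a gene of secretory vesicles that shares its entry with the signalling gene Traf7, was at 27.0, 21.5, 28.4 and 16.8 FPKM, a ratio of -0.65 at 20 U/ml that cannot be assigned to either gene.

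The remaining measured members were Rab23, Rab28 and Rab40c. Rab23, known from Hedgehog signalling and cilia (chromosome 1, 33719887 to 33742564), was at 2.21 FPKM in untreated cells, 1.61 at 0.2, 3.00 at 2 and 4.65 at 20 U/ml. Its ratio at 20 U/ml was 0.82, and 1.04 with a pseudocount of 0.1 FPKM, under which it was called higher. Rab28 stayed between 17.2 and 19.9 FPKM. Rab40c, which serves as a substrate receptor of a ubiquitin ligase, was at 19.9, 19.0, 14.7 and 15.1 FPKM, with ratios of -0.41 at 2 and -0.37 at 20 U/ml.

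Across doses, 4 of the 41 Rab GTPases had values in ascending order through the 4 groups (Rab39, Rab19, Rab20 and the entry of Rab4b), which is 9.76% of them against 9.28% of all entries. With upper-quartile scaling this held for 2, Rab39 and Rab19, against 6.34% of all entries. Another 3 (Rab31, Rab1b and Rab2a) had values in descending order, 7.32% against 6.54% of all entries. Of these 3, Rab2a alone kept that order with upper-quartile scaling and 0 with quantile normalization. The members in descending order were then Rab2a and Rab40c with upper-quartile scaling (9.09% of all entries), and Rab40c and Rab8b with quantile normalization (7.85%). The lowest of the 4 values was at 0.2 U/ml for 20 of the 41, against 30.8% of all entries, and the highest was at 20 U/ml for 21, against 35.3%. With quantile normalization these counts were 24 (38.2% of all entries) and 14 (30.4%), so the second depends on the scaling. At 20 U/ml 80.5% of the Rab GTPases had a ratio under 0.5 in size, against 72.4% of all entries.

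**Figure D4:**
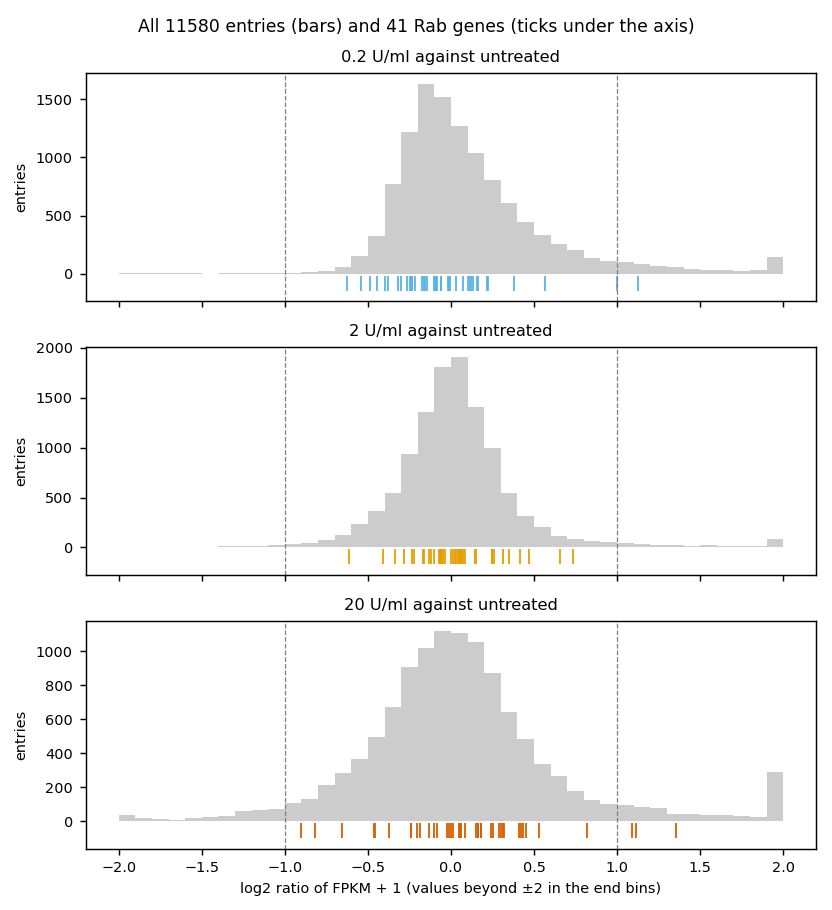
Number of entries by log2 ratio of FPKM + 1 to untreated cells in bins of 0.1 for 11580 entries (grey bars), with 1 tick per Rab GTPase under the axis, for 0.2, 2 and 20 U/ml from top to bottom, and dashed lines at the size rule of 1. Most ticks of the 41 genes lie under the tall bars, with medians of -0.09, 0.03 and 0.08, and none reaches the end bins, which collect all ratios beyond 2 in size.

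Summed over all 58 Rab GTPases, FPKM was 2517 in untreated cells, 2813 at 0.2, 2497 at 2 and 2696 at 20 U/ml. By compartment, recycling endosomes and the plasma membrane held 36.8% of it without IFNγ and 36.4% at 20 U/ml, the endoplasmic reticulum and Golgi 21.6% and 22.8%, late endosomes and lysosomes 18.0% and 16.3%, early endosomes 15.5% and 16.6%, and secretory organelles 6.56% and 6.43%. Early endosome members summed to 390 FPKM in untreated cells, 339 at 0.2, 393 at 2 and 449 at 20 U/ml. At 0.2 U/ml the share of the recycling group was 44.6%, with Rab11a and Rab14 as its largest entries. These sums hold merged entries, whose values include other genes. The 53 Rab entries of a single gene summed to 1965 FPKM in untreated cells, 2068 at 0.2, 1924 at 2 and 2005 at 20 U/ml.

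The machinery that loads and switches Rab proteins was taken as 4 lists with 123 gene symbols, of which 104 had a usable entry. Zfyve20 and Rbsn, an older and the current symbol of the same gene, are both among the 123, and only Rbsn had an entry. At 20 U/ml 3 of the 104 were higher and 0 lower, with a median ratio of -0.07, against 6.51% and 2.94% of all entries. With either scaling 5 passed the size rule in some direction. The shares of all entries were 5.43% higher and 4.09% lower with upper-quartile scaling, and 5.68% and 3.71% with quantile normalization. With a pseudocount of 0.1 FPKM 7 regulators passed, against 7.6% of all entries higher and 4.7% lower. At 0.2 and 2 U/ml 0 passed, against 5.23% of all entries higher at 0.2 and 2.5% at 2 U/ml. All 8 genes for prenylation and membrane extraction were measured and 0 passed. Gdi2, which extracts Rab proteins from membranes, was at 221 FPKM in untreated cells, 254 at 0.2, 207 at 2 and 179 at 20 U/ml. Of 28 exchange factors, which load GTP, 1 was higher at 20 U/ml: Ric1, part of an exchange factor of Rab6, at 3.89, 3.26, 5.74 and 9.82 FPKM (1.14).

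Of 32 GTPase-activating proteins, which switch Rab proteins off, 2 were higher at 20 U/ml, a share close to the 6.51% of all entries. Tbc1d9 was at 7.72 FPKM in untreated cells, 7.39 at 0.2, 11.6 at 2 and 24.0 at 20 U/ml, a ratio of 1.52, larger than the 1.35 of Rab39 on this scale. Tbc1d8 was at 10.9, 8.92, 7.18 and 25.4 FPKM (1.15), so that only its value at 20 U/ml lay above untreated cells. Of 36 effectors 0 passed in either direction at any dose, where at 20 U/ml 6.51% of all entries were higher and 2.94% lower.

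The 3 members that are not Rab GTPases passed the size rule at no dose. Rab3ip was at 1.97 FPKM in untreated cells, 2.40 at 0.2, 2.72 at 2 and 3.61 at 20 U/ml, in the order of the doses, with a ratio of 0.63 at 20 U/ml. Rab10os, which overlaps Rab10 on the other strand, stayed between 15.6 and 17.7 FPKM and Rab26os between 6.98 and 8.43.

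A second table compares 2 conditions, untreated and treated, and names no dose. In the authors' deposited table, 19 of 45 tested Rab GTPases were higher and 16 lower at q under 0.05, against 35.1% and 33.8% of all tested entries. In the authors' deposited table Rab20 had a log2 fold change of 2.00 (q = 9.95e-05), Rab39 of -1.38 and Rab19 of -2.32, the last 2 opposite in sign to their ratios at 20 U/ml. The merged entry of Rab43 (1.39) and Rab34 (-0.77) had the same sign there as at 20 U/ml in the dose table. The IFNγ-induced genes Irf1 (0.38), Gbp2 (0.28) and Ly6a (-0.18) had q-values of 0.0747, 0.310 and 0.560 in the authors' deposited table, while their ratios at 20 U/ml in the dose table were 3.87, 5.24 and 6.46. The 2 tables were therefore not read together, and the sources used here do not give the dose behind the second.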

How the data were processed

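Reads were processed by the authors with TopHat2 2.1.1, Cufflinks 2.1.1 and Cuffdiff 2.1.1 on mm10, as the submitters' processing notes list them. The deposited dose table holds 1 FPKM per entry and group, per the file headers. The untreated column names no unit and was read as FPKM because its sum (769698) is close to that of the 2 U/ml column (783701). The sources used here do not say whether a value pools the 3 libraries. The other deposited table gives, per the file headers, each entry's log2 fold change, p-value and q-value.

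The members and lists were chosen with earlier results of these data known. Ratios are differences of log2(FPKM + 1), with no test, over 11580 entries with a mean of at least 1 FPKM; 272 others listed at 0 in a group were left out. The formula of the ratios and the size rule were checked on simulated entries with known ratios, apart from the code that gave the results. Depth is unknown, which limits what low values can show. Named genes were those past the size rule at any dose, the 2 most abundant members of each compartment and those with its largest and smallest ratio at 20 U/ml, and members merged with another gene. For the regulators, up to 4 past the rule per list were named. Other members and regulators were named after their values were seen, to complete the groups. Positions are from GENCODE M21 (GRCm38), promoters from RefSeq on GRCm38.p6. Python 3.11.15, pandas 2.3.3 and matplotlib 3.10.9 were used.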

Additional observations from a re-analysis of the deposited data

How the results depend on the processing

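The counts of Rab GTPases were recomputed under 8 alternatives. Filters on low values, entries listed at 0 and removal of merged entries left all counts within 1.5 times, although a mean of at least 5 FPKM leaves out Rab39. With a pseudocount of 0.1 FPKM 1 member was higher at 2 U/ml, Rab39, against 3.3% of all entries. At 20 U/ml 7 regulators passed with it, against 7.6% of all entries higher and 4.7% lower. With upper-quartile scaling 1 member was higher at 0.2 U/ml (Rab14), against 4.4% of all entries. At 20 U/ml 1 was higher (Rab39) and 1 lower (Rab34), against 5.4% and 4.1%. With this scaling 2 rose through all groups, against 6.3% of all entries, and 5 regulators passed. The median ratio was -0.204 at 0.2 and -0.061 at 20 U/ml. With quantile normalization 0 were higher at 0.2 U/ml, against 4.1% of all entries. At 20 U/ml 1 was higher and 1 lower, against 5.7% and 3.7%. With this setting 5 regulators passed, and the medians at 0.2 and 20 U/ml were -0.213 and -0.069. With a 1.5-fold rule 2 were higher and 1 lower at 0.2 U/ml, against 11.6% and 1.4% of all entries. At 2 U/ml 2 were higher and 1 lower, against 5.3% and 3.4%. At 20 U/ml 4 were higher and 3 lower, against 12.6% and 9.6%. Under this rule 18 of 104 regulators passed at 20 U/ml, beside the 12.6% of all entries higher and 9.6% lower. A weaker threshold takes more. The cause of the shifts under scaling was not tested. No paired analysis was possible because the table holds 1 value per group, and no replicate could be left out for the same reason.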

Other observations

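Some regulators of Rab proteins that fell short of the size rule were picked after their values were seen. Rabac1, the prenylated Rab acceptor, was at 684 FPKM in untreated cells, 1180 at 0.2, 535 at 2 and 398 at 20 U/ml, with its highest value at 0.2 U/ml as for Rab14 and Rab7b. Tbc1d2, a GTPase-activating protein of Rab7, was at 8.63, 6.64, 6.84 and 3.93 FPKM, and the Rab effector Mical1 at 25.1, 23.4, 19.8 and 13.1. The endosomal adaptor Appl2 was at 39.5, 23.4, 24.7 and 21.8 FPKM, with all 3 treated groups below untreated cells. Ccz1, part of the exchange factor of Rab7, was at 34.0, 36.8, 47.0 and 56.6 FPKM, in the order of the doses. The kinase Lrrk2, which phosphorylates Rab proteins, was at 4.40, 5.70, 4.85 and 8.29 FPKM.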
